A study of Mus musculus with 12 samples.

Results

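The 9 genes described here encode the proteins that hold basal keratinocytes to the basement membrane: the integrin chains *Itga6*, *Itgb4*, *Itga3* and *Itgb1*, the laminin chains *Lama3* and *Lamb3*, the plaque proteins *Dst* and *Plec*, and the tetraspanin *Cd151*. They were chosen by name, as rows of the deposited gene count table whose Ensembl identifier maps to these symbols, and make up 9 of the 52636 genes in the table. All 9 passed the filter on low counts, which kept 18822 genes. Their counts lay between 615 and 18585 in every library.

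Skin RNA was sequenced from 4 groups of 3 C57BL/6 mice aged 3 months, collected on day 14. The KO mice were *Cdc42* loxp/loxp and carried a Cre driven by the K5 promoter, so that *Cdc42* was targeted only in cells that use this promoter, mainly basal keratinocytes and cells derived from them, while the WT mice lacked Cre and kept *Cdc42*, also where it was flanked by loxp sites. The groups named WT and KO received the vehicle, normal saline with HPMC, and 2 further groups, WT+ZnO NPs and also KO+ZnO NPs, received zinc oxide nanoparticles (ZnO NPs) at 2 mg/cm2. The dorsal skin of all groups was shaved, and each library holds whole skin, with dermis and appendages as well as epidermis. In such bulk samples, fewer cells of a type and less RNA per cell cannot be told apart.

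A hemidesmosome is built around the integrin α6β4, which binds laminin-332 in the basement membrane on the outside and, through plectin and the epithelial form of dystonin, keratin filaments on the inside. The integrin α3β1 binds the same laminin but is linked to actin, and CD151 associates with both integrins. *Lama3* and *Lamb3* encode chains of laminin-332, and type VII collagen anchors this laminin to the dermis.

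The labels were checked before the levels were read. The *Cdc42* level lay between 606 and 628 CPM (counts scaled to the library's total and its TMM factor) in the WT libraries and between 415 and 464 CPM in the KO libraries. It was lowest in libraries with the label WT+ZnO NPs (311 to 350 CPM), against what that label says. Libraries with the label KO+ZnO NPs held 314 to 453 CPM. These groups are therefore named by their label only. Y-linked transcripts were present in 5 libraries, namely all 3 labelled WT+ZnO NPs, KO replicate 1 and KO+ZnO NPs replicate 1, and *Xist* in the other 7, so that libraries with the label WT+ZnO NPs and the WT libraries come from mice of different sex. The study's methods describe the KO mice as female, which the Y-linked transcripts of KO replicate 1 and KO+ZnO NPs replicate 1 go against. Hence sex and ZnO NPs cannot be told apart in that comparison. The basal keratinocyte markers *Krt5*, *Krt14*, *Krt15* and *Trp63* were present in every library, with a summed level of 3902 to 5609 CPM in WT, 6052 to 10306 CPM in WT+ZnO NPs, 6316 to 10139 CPM in KO and 9570 to 11529 CPM in KO+ZnO NPs.

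Levels of different genes are compared per length, as CPM divided by the gene's summed exon length in kilobases (CPM per kb). In WT skin the order was *Itgb1* at 143 ± 15.3 CPM per kb, *Cd151* at 83.1 ± 8.32, *Plec* at 26.6 ± 2.49, *Itga6* at 20.6 ± 2.63, *Itgb4* at 13.6 ± 0.328, *Dst* at 9.16 ± 1.30, *Itga3* at 8.09 ± 1.82, *Lamb3* at 5.69 ± 0.681 and *Lama3* at 2.44 ± 0.396 CPM per kb (SD, n = 3). The libraries of neighbours in this order did not overlap, apart from those of *Dst* and *Itga3* and those of *Itga3* and *Lamb3*. Thus by this measure the laminin chains were the lowest of the 9 genes in WT skin, and the integrin chain shared with many other cell types was the highest. The exon length sums all annotated forms of a gene, such as 41155 bases for *Dst* and 10745 for *Lama3*. A gene used in a shorter form would be placed too low, and which forms were used was not tested.

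Among the 9 genes, the laminin-332 chains showed the largest differences between genotypes without ZnO NPs. *Lama3*, on chromosome 18, encodes the α3 chain. Its level was 25.8, 22.3 and 30.7 CPM in the 3 WT libraries and 129, 150 and 100 CPM in the 3 KO libraries. Every KO library lay above every WT library. The fitted difference was a 4.81-fold higher level in KO (log2 fold change 2.27 ± 0.30 (SE), Benjamini-Hochberg adjusted p = 0.00203 in edgeR's quasi-likelihood test). The call was kept under all 21 alternative settings, with log2 fold changes between 2.14 and 2.41.

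*Lamb3* (chr1:193207699-193343878, plus strand, GRCm38) encodes the β3 chain. It was measured at 39.4, 32.5 and 41.0 CPM in WT and at 102, 114 and 62.6 CPM in KO, again without overlap. The level was 2.47-fold higher in KO (log2 fold change 1.30 ± 0.27 (SE), adjusted p = 0.0186, edgeR). This call rested on having all libraries: without any 1 of the WT replicates, or without KO replicate 1 or 2, the adjusted p rose to between 0.0521 and 0.0942, while the log2 fold change stayed between 1.14 and 1.37.

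*Col7a1* (chr9:108953586-108984875, plus strand), which is not among the 9 genes and encodes the anchoring collagen, was at 39.7, 18.0 and 32.4 CPM in WT and at 610, 591 and 512 CPM in KO. It was 19.0-fold higher in KO (log2 fold change 4.25 ± 0.37 (SE), adjusted p = 4.06e-04, edgeR). Both laminin chains and the collagen attached to this laminin were thus called higher in KO skin, whereas *Col17a1*, which encodes the transmembrane collagen of the hemidesmosome, was not called (log2 fold change 0.43 ± 0.27 (SE), adjusted p = 0.352, edgeR).

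**Figure D1:**
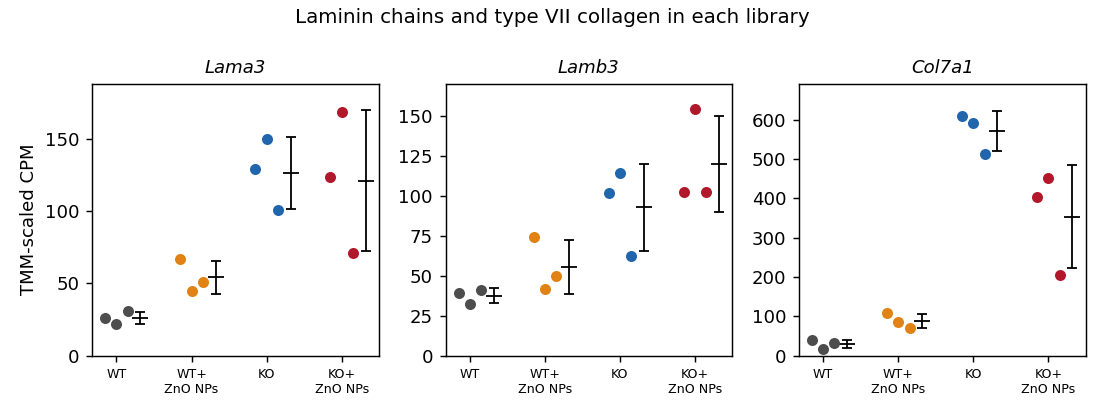
Levels of the laminin chains *Lama3* and *Lamb3* and of *Col7a1* in CPM scaled by TMM factors, on axes that start at 0. Each point is 1 library, and the bars give the mean and SD of the 3 libraries of a group. For each of the 3 genes, every KO library lies above every WT library, and KO+ZnO NPs replicate 3 is the lowest of its group for *Lama3* and *Col7a1*.

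The levels of keratinocyte, hair, dermal and other markers also differed between these groups. Of the 4 basal keratinocyte markers, 1 was called higher in KO than in WT, *Trp63*, and of the 8 markers of hair follicle matrix and sheath, 7 were. The summed level of the hair follicle markers was 3.99, 1.40 and 4.80 CPM in WT, where *Krt71* and *Krt31* were at 0 in replicate 2, and 7354, 9.20 and 2196 CPM in KO. Among the KO libraries, replicate 2 had the lowest sum of hair follicle markers, the highest sums of basal (10139 CPM) and suprabasal (15081 CPM) keratinocyte markers, and the highest levels of *Lama3* and *Lamb3*. Summed suprabasal markers lay between 4107 and 6433 CPM in WT and between 7312 and 15081 CPM in KO, with 0 of 7 called by edgeR. The dermal fibroblast markers, from a cell type that also makes type VII collagen, summed to 7865 to 14731 CPM in WT and 23608 to 37917 CPM in KO, where 4 of 7 lay higher in every KO library and 0 were called. These 4 were *Lum* and the collagen genes *Col1a1*, *Col1a2* and *Col3a1*, and the collagens made up most of the sum (means of 8087, 7740 and 9997 CPM in KO). The other 3, *Dcn*, *Pdgfra* and *Dpt*, overlapped, with log2 fold changes of -0.21, -0.03 and -0.33. Every KO library lay below every WT library for 5 of 6 endothelial, 4 of 5 adipocyte and 5 of 7 skeletal muscle markers, of which 1, *Myh4*, was called lower. Divided by the summed level of *Krt5* and *Krt14*, *Lama3* stood at 0.587% ± 0.0189 in WT and 1.59% ± 0.0844 in KO, and *Lamb3* at 0.845% ± 0.0452 and 1.15% ± 0.0900 (SD, n = 3), without overlap for either gene. Hence the chains were higher in KO relative to basal keratins too, by smaller factors. Beyond these values, the part of hair follicle, fibroblast and other cells in the differences of *Lama3*, *Lamb3* and *Col7a1* was not tested. Among the 7 libraries with *Xist*, the difference was 2.25 on the log2 scale for *Lama3* (adjusted p = 0.0136, edgeR) and 1.23 for *Lamb3* (adjusted p = 0.0645).

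The proportion of the chains to each other differed as well. Per kb of exon, *Lama3* stood at 42.9% ± 2.99 of *Lamb3* in WT and at 85.8% ± 11.4 in KO (SD, n = 3), with every KO library above every WT library. No test was run on this ratio.

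Over the 12 libraries, the levels of *Lama3* and *Lamb3* on a log2 scale had a Pearson r of 0.93, and of 0.79 after the group means were subtracted. This was the highest r of the 36 pairs among the 9 genes, whose median was 0.07. The points share the groups and the scaling, so these are descriptions. The strongest relation within groups was that of *Itgb4* and *Lamb3*, at 0.94. *Cd151* and *Lama3* had an r of -0.54 over all libraries and -0.0065 within groups.

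The sequences around the start sites of *Lamb3*, *Col7a1* and *Cd151* are shown because these genes carry the differences described and RefSeq windows (GRCm38.p6, 250 bases before to 50 bases after the start) were at hand for them. Such windows were matched for 5 of the 9 genes, *Itga3*, *Itgb1*, *Lamb3*, *Dst* and *Cd151*. The motifs searched on both strands were TGANTCA, the core bound by AP-1, GGGCGG, the GC box, and TATAAA, the TATA box. Capitals mark the motifs found.
Lamb3: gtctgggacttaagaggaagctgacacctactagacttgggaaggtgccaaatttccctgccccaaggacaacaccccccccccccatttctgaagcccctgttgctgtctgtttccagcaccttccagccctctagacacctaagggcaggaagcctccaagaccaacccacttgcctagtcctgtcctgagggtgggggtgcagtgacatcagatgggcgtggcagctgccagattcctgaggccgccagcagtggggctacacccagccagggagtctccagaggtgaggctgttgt
Col7a1: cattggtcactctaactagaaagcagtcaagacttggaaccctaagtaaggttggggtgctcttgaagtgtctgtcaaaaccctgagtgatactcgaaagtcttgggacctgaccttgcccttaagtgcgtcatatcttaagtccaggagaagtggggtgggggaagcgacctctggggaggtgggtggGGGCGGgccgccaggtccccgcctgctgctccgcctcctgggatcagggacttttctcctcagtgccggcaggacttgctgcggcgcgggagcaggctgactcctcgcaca
Cd151: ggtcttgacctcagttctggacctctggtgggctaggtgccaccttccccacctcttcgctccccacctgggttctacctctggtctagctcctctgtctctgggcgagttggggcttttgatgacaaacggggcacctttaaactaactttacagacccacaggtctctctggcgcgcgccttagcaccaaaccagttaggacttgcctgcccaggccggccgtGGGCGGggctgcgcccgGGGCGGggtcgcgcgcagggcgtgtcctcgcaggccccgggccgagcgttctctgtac
The *Lamb3* window (chr1:193301744-193302043, plus strand) held none of the 3 motifs. The *Col7a1* window (chr9:108953336-108953635, plus strand) held 1 GC box, and the *Cd151* window shown (chr7:141467112-141467411, plus strand) held 2. *Lamb3* and *Cd151* each had a second window, at chr1:193301993-193302292 and chr7:141468539-141468838. These are not shown and held none of the motifs. Of all 32851 windows, 35.7% held a GC box, 7.81% the AP-1 core and 13.6% the TATA box, so that these matches are common and say nothing of the factors that bind.

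The tetraspanin *Cd151* (chr7:141467392-141471473, plus strand) differed in the opposite direction. Its level was 208, 252 and 223 CPM in WT and 169, 126 and 141 CPM in KO, with every KO library below every WT library. The level was 1.57-fold lower in KO by the fit (log2 fold change -0.65 ± 0.13 (SE), adjusted p = 0.0147, edgeR). Without WT replicate 2, KO replicate 2 or KO replicate 3 the adjusted p was 0.0781, 0.0523 and 0.0546. Relative to *Krt5* and *Krt14* together, *Cd151* stood at 5.23% ± 1.38 in WT and 1.89% ± 0.556 in KO (SD, n = 3). A lower ratio in KO was not particular to *Cd151*: on it *Itga6* (3.44% to 5.73% in WT, 1.93% to 2.65% in KO), *Itgb1* (mean 13.4% in WT, 7.67% in KO), *Itgb4* (1.79% to 2.60% in WT, 1.52% to 1.73% in KO), *Dst* (7.57% to 9.36%, 3.53% to 6.29%) and *Plec* (8.45% to 13.1%, 5.09% to 7.75%) also lay lower in KO without overlap, while *Itga3* overlapped and the laminin chains were higher. The divisors *Krt5* and *Krt14* lay higher in every KO library, with log2 fold changes of 0.77 and 0.89 and no call. In CPM, *Itga6*, *Itgb1*, *Itgb4*, *Dst* and *Plec* overlapped between the groups, with log2 fold changes of -0.04, 0.01, 0.44, 0.02 and -0.02. An antisense gene, Gm10575, overlaps 7.04% of the *Cd151* exon bases, and whether strand was used in counting is not given in the sources used here.

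In all, 3 of the 9 genes were called between KO and WT, where 8.18% of all genes tested were called. These were 2 higher and 1 lower, where 4.61% of all genes were called higher and 3.58% lower. The libraries of the groups did not overlap for the same 3 genes, against 38.5% of all genes (18.6% higher and 19.9% lower). The median log2 fold change over the 9 genes was 0.02, beside 0.01 over all genes tested. The other 6 genes had log2 fold changes between -0.04 for *Itga6* and 0.44 for *Itgb4*. The nearest to a call was *Itgb4*, the β4 chain found in hemidesmosomes, at 96.9, 96.2 and 92.6 CPM in WT and 144, 149 and 95.5 CPM in KO (adjusted p = 0.197, edgeR, 95% interval of the log2 fold change -0.01 to 0.89). For *Itga6*, *Itgb1*, *Dst* and *Plec* the fitted difference between KO and WT was within 0.05 on the log2 scale, with 95% intervals that reached at most 0.62 in either direction.

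**Figure D2:**
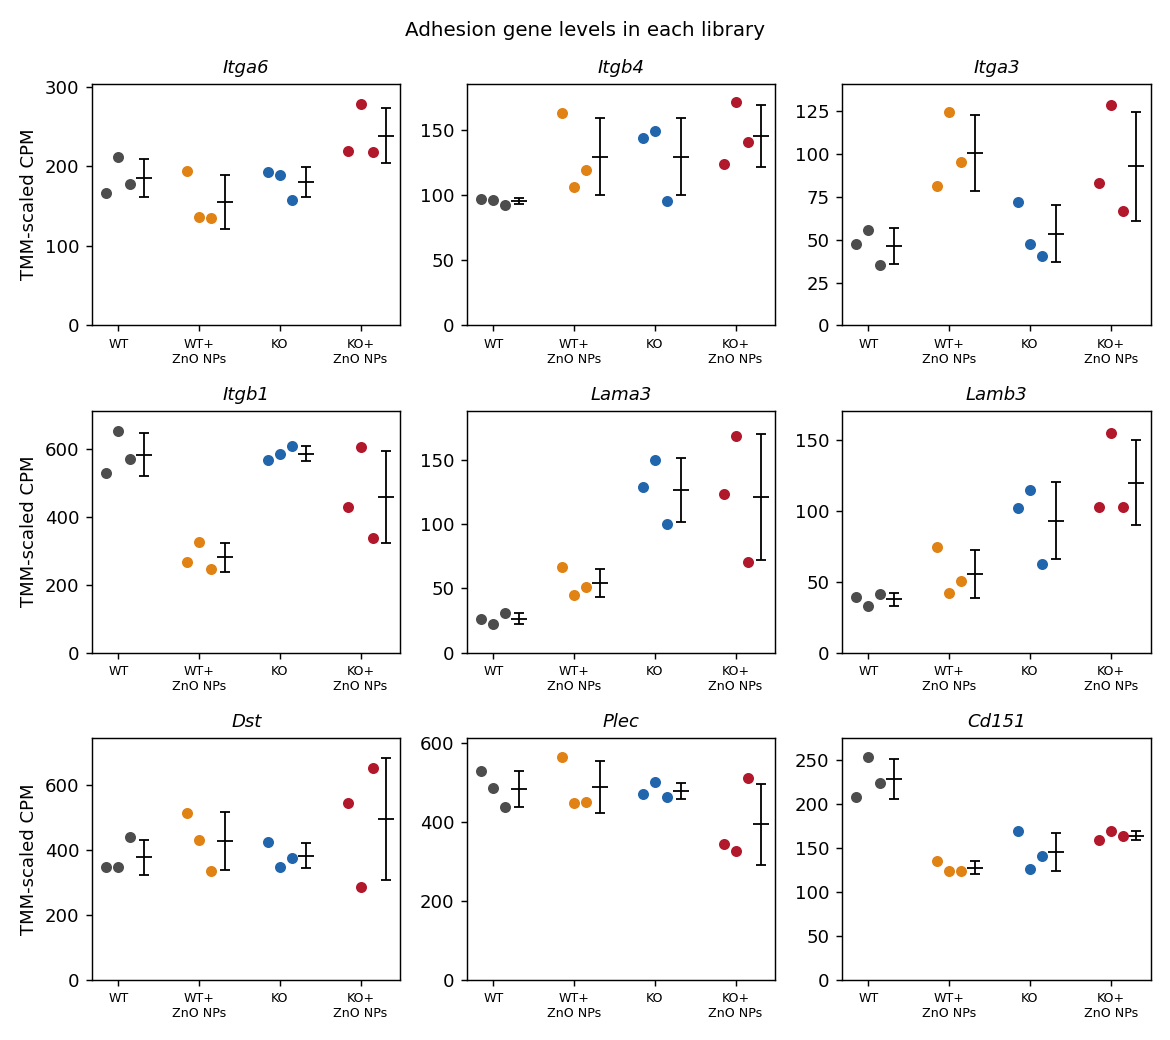
Levels of the 9 adhesion genes in CPM scaled by TMM factors, on axes that start at 0. Each point is 1 library, and the bars give the mean and SD of the 3 libraries of a group. *Lama3* and *Lamb3* are higher in KO than in WT, *Itgb1* is lowest in libraries with the label WT+ZnO NPs, and *Cd151* is highest in WT.

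Between WT and libraries with the label WT+ZnO NPs, the chains of the integrin α3β1 were called in opposite directions. *Itga3* (chr11:95044474-95076801, minus strand) encodes the α3 chain, which pairs with β1. Its level was 47.7, 55.8 and 35.1 CPM in WT and 81.1, 125 and 95.5 CPM in libraries with the label WT+ZnO NPs, a 2.17-fold higher level (log2 fold change 1.12 ± 0.29 (SE), adjusted p = 0.0112, edgeR). *Itgb1* (chr8:128685654-128733200, plus strand), which encodes the β1 chain shared by many integrins and present in most cell types of skin, was at 530, 652 and 571 CPM in WT and at 268, 328 and 247 CPM in libraries with the label WT+ZnO NPs. Its level was 2.08-fold lower (log2 fold change -1.06 ± 0.21 (SE), adjusted p = 0.00251, edgeR). Neither gene's libraries overlapped between the groups.

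Per kb of exon, *Itga3* stood at 6.43%, 6.11% and 4.40% of *Itgb1* in the WT libraries and at 21.7%, 27.2% and 27.6% in those with the label WT+ZnO NPs. In KO the ratio was 9.09%, 5.81% and 4.77%, and in libraries with the label KO+ZnO NPs it was 13.8%, 15.1% and 14.1%. Both groups given ZnO NPs thus lay above both groups given vehicle in every library, and libraries with the label WT+ZnO NPs lay above those with the label KO+ZnO NPs. No test was run on this ratio.

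*Cd151* and *Lama3* were the other genes called between libraries with the label WT+ZnO NPs and WT. *Cd151* was at 135, 123 and 123 CPM in libraries with the label WT+ZnO NPs, all below the WT libraries, and 1.79-fold lower by the fit (log2 fold change -0.84 ± 0.13 (SE), adjusted p = 6.07e-04, edgeR). *Lama3* was at 66.7, 45.0 and 50.8 CPM, all above WT, and 2.06-fold higher (log2 fold change 1.04 ± 0.29 (SE), adjusted p = 0.0142, edgeR). The *Lama3* call was lost without WT replicate 2 (adjusted p = 0.0583) and without WT+ZnO NPs replicate 1 (adjusted p = 0.0515). *Lamb3*, at 74.2, 41.9 and 50.2 CPM, also lay above WT in every library but was not called (log2 fold change 0.56 ± 0.27 (SE), adjusted p = 0.117, edgeR).

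The count for this comparison was 4 of 9 genes called, where 43.0% of all genes tested were called. These were 2 higher and 2 lower, where 20.8% of all genes were called higher and 22.1% lower. The groups did not overlap for 6 of the 9 genes, 4 higher and 2 lower, against 59.4% of all genes (30.1% higher and 29.3% lower). The share called among the 9 genes was therefore near that of all genes. The median log2 fold change was 0.18 over the 9 genes and 0.06 over all genes tested. With a covariate for Y-linked transcripts, which rests on the KO libraries and those with the label KO+ZnO NPs alone to separate sex from treatment, 1 gene was called, *Cd151* (log2 fold change -0.98, adjusted p = 0.00744, edgeR). *Itga3*, *Itgb1* and *Lama3* kept their direction but were not called: the log2 fold changes were 0.86 ± 0.43, -0.95 ± 0.31 and 1.00 ± 0.44 (SE), beside 1.12 ± 0.29, -1.06 ± 0.21 and 1.04 ± 0.29 without the covariate, with adjusted p-values of 0.184, 0.0558 and 0.130. The folds thus moved by less than 1 SE and the SEs were larger.

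Other cell types moved in the same comparison. All 6 endothelial markers were called lower in libraries with the label WT+ZnO NPs, with a summed level of 112 to 249 CPM against 639 to 657 CPM in WT. Of the adipocyte markers 4 of 5 were called lower (637 to 1379 CPM against 4501 to 6458 CPM), and of the immune markers 3 of 4 (139 to 298 CPM against 1846 to 2467 CPM). Within the keratinocyte lineage the lists went in opposite directions: 3 of 4 basal markers were called higher, while all 7 suprabasal markers had negative fold changes and 5 were called lower (1115 to 1320 CPM against 4107 to 6433 CPM). All 8 hair follicle markers were called higher (900.0 to 4309 CPM against 1.40 to 4.80 CPM). The part of these cell types in the differences of *Itga3*, *Itgb1*, *Cd151* and *Lama3* was not tested. Relative to *Krt5* and *Krt14* together, *Cd151* stood at 2.11% ± 0.529 (SD, n = 3) in libraries with the label WT+ZnO NPs, below WT without overlap, as were *Itga6* (2.17% to 2.75%) and *Itgb1* (3.00% to 6.13%). On this ratio *Lama3* lay above WT without overlap (0.747% to 1.04% against 0.565% to 0.601%), and *Itga3* overlapped (0.909% to 2.33% against 0.680% to 1.51%).

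**Figure D3:**
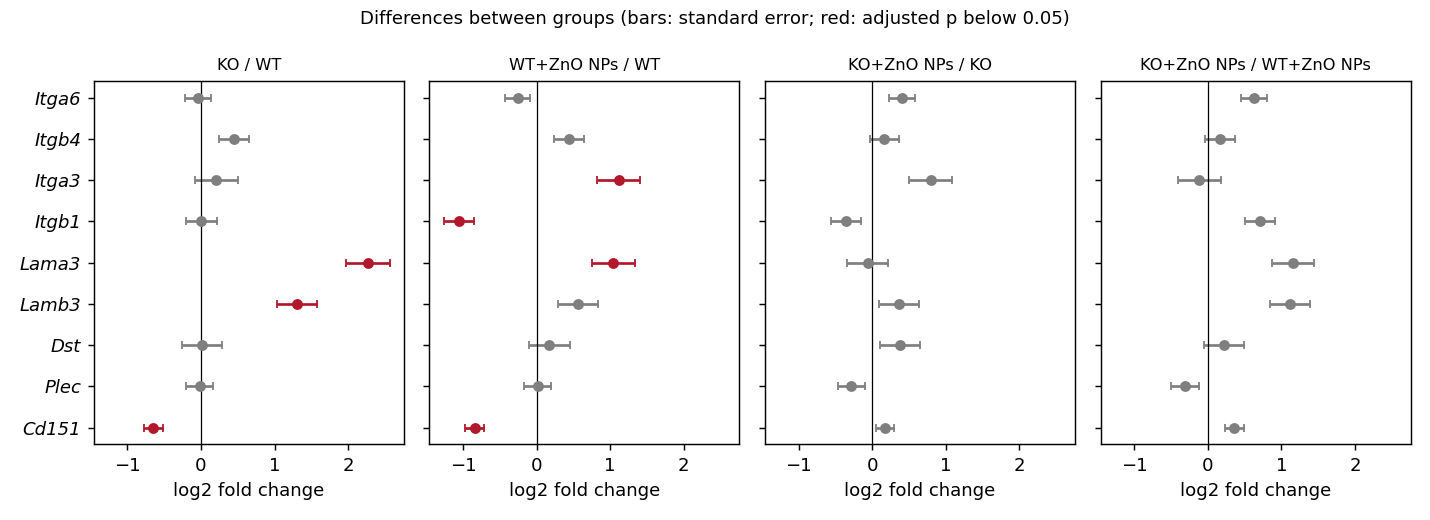
Log2 fold changes of the 9 genes in the 4 comparisons of groups, with bars of 1 SE. Red points have an adjusted p below the threshold of 0.05 in the edgeR quasi-likelihood test: 3 genes between KO and WT, 4 between WT+ZnO NPs and WT, and 0 in the comparisons of KO+ZnO NPs with KO and with WT+ZnO NPs.

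Between KO and libraries with the label KO+ZnO NPs, none of the 9 genes passed the test. EdgeR called 0 of the 9 genes, where 14.7% of all genes tested were called, and DESeq2 also called 0. At an unadjusted p under 0.05 edgeR gave 2 genes, *Itga6* and *Itga3*. *Itga6* (chr2:71745616-71858416, plus strand), which encodes the α6 chain, was at 193, 189 and 158 CPM in KO and at 220, 279 and 218 CPM in libraries with the label KO+ZnO NPs (log2 fold change 0.41 ± 0.18 (SE), adjusted p = 0.138, edgeR). It was the only 1 of the 9 genes without overlap between these groups, against 34.7% of all genes tested, or 17.0% in this direction. *Itga3* was at 72.1, 47.6 and 40.7 CPM in KO and at 83.0, 128 and 66.8 CPM with ZnO NPs, which overlap (log2 fold change 0.79 ± 0.29 (SE), adjusted p = 0.0876, edgeR). The median log2 fold change was 0.17 over the 9 genes and 0.01 over all genes tested.

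The laminin chains differed from KO by less than the spread between libraries. *Lama3* was at 124, 169 and 70.9 CPM in libraries with the label KO+ZnO NPs, around the KO values, with a log2 fold change of -0.06 and a 95% interval of -0.69 to 0.56. *Lamb3* was at 102, 155 and 103 CPM (log2 fold change 0.37, 95% interval -0.23 to 0.96).

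Between the 2 groups given ZnO NPs, 5 of the 9 genes were higher in every KO+ZnO NPs library than in every WT+ZnO NPs library, namely *Itga6*, *Itgb1*, *Lama3*, *Lamb3* and *Cd151*, against 13.0% of all genes in this direction and 23.7% in either. These 5 were the genes at an unadjusted p under 0.05, but edgeR called 0 of 9 after adjustment, where 3.28% of all genes tested were called. The adjusted p-values were 0.0516 for *Lamb3* (log2 fold change 1.11 ± 0.27 (SE)), 0.0523 for *Lama3* (1.16 ± 0.29), 0.0718 for *Itga6* (0.62 ± 0.18), 0.0769 for *Itgb1* (0.71 ± 0.21) and 0.117 for *Cd151* (0.36 ± 0.13). DESeq2 called 4 of them, all but *Cd151*. With a minimum of 10 counts in every library edgeR called 2, *Lama3* and *Lamb3*. Most alternatives gave no call: of 21, *Lamb3* was called in 4, *Lama3* in 3, *Itga6* and *Itgb1* in 2 each and *Cd151* in 0. In this order, the first 4 reached adjusted p-values of up to 0.297, 0.216, 0.375 and 0.364 (edgeR). Every WT+ZnO NPs library held Y-linked transcripts, and of the KO+ZnO NPs libraries only replicate 1 did. The *Cdc42* level overlapped, at 311 to 350 CPM in WT+ZnO NPs and 314 to 453 CPM in KO+ZnO NPs. The number called was 2 without WT+ZnO NPs replicate 1, namely *Itga6* and *Lamb3*, and 3 without KO+ZnO NPs replicate 3, namely *Itgb1*, *Lama3* and *Lamb3*. The median log2 fold change was 0.36 over the 9 genes and 0.04 over all genes tested. Summed basal keratinocyte markers overlapped between these groups, at 9570 to 11529 CPM in KO+ZnO NPs and 6052 to 10306 CPM in WT+ZnO NPs. Relative to *Krt5* and *Krt14* together, of the 5 genes only *Lamb3* lay higher in KO+ZnO NPs without overlap (1.13% to 1.46% against 0.784% to 1.03%). On this ratio *Itga6* (2.39% to 2.63% against 2.17% to 2.75%), *Itgb1* (3.73% to 5.73% against 3.00% to 6.13%), *Lama3* (0.779% to 1.59% against 0.747% to 1.04%) and *Cd151* (1.59% to 1.83% against 1.52% to 2.52%) overlapped. Suprabasal markers (1800 to 8415 CPM and 1115 to 1320 CPM, 1 of 7 called higher) and endothelial markers (297 to 859 CPM and 112 to 249 CPM, 2 of 6 called higher) lay higher in KO+ZnO NPs without overlap, as the 5 genes did in CPM, and their part in these differences was not tested.

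The interaction asks whether the difference with ZnO NPs was the same under both genotype labels, one of which the *Cdc42* level of the WT+ZnO NPs libraries goes against. It was called for 1 of the 9 genes, *Cd151*, where 8.68% of all genes tested were called, 5.08% with a positive interaction. *Cd151* fell by 0.84 on the log2 scale between WT and libraries with the label WT+ZnO NPs, while libraries with the label KO+ZnO NPs, at 159, 169 and 163 CPM, lay within the range of KO (log2 fold change 0.17 ± 0.13 (SE)). The difference between these changes was 1.01 ± 0.18 (SE) (adjusted p = 0.0122, edgeR), and 1.17 with the Y-linked covariate (adjusted p = 0.0605). *Lama3* had the largest interaction among the other 8 genes, at -1.11 ± 0.40 (SE), which was not called (adjusted p = 0.108). The count rose to 2 without WT+ZnO NPs replicate 1, where *Itga6* was added, and without KO+ZnO NPs replicate 2, where *Lama3* was added.

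**Figure D4:**
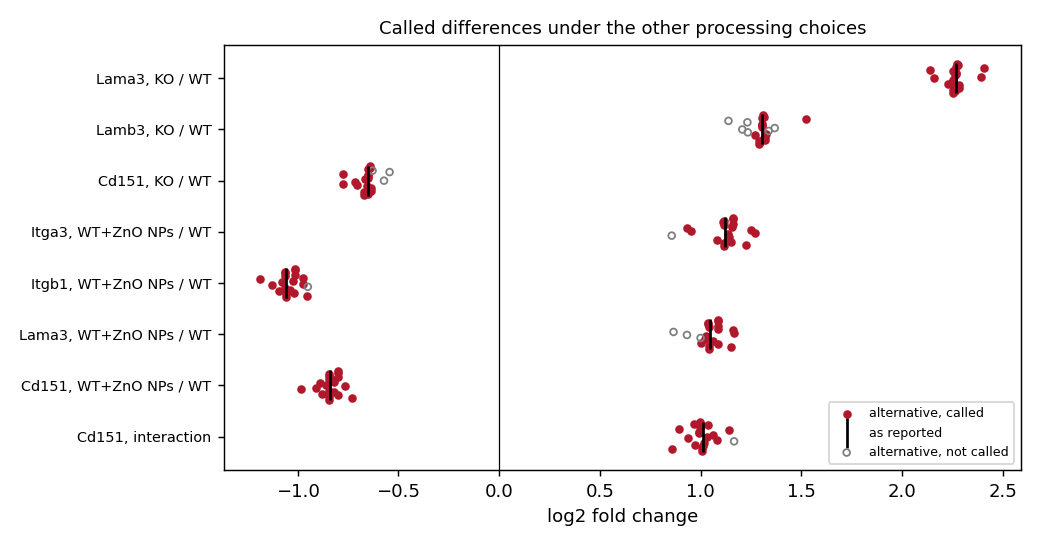
Log2 fold changes of the 8 called differences among the 9 genes (black lines) and their values under the other processing settings (points, filled where still called). The sign was the same in every setting, *Lama3* between KO and WT was called in all 21, and *Lamb3* between KO and WT lost its call in 6.

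The plaque proteins had no call in any comparison. *Dst* (chr1:33908225-34308661, plus strand) encodes dystonin, whose epithelial form is BPAG1e, and *Plec* (chr15:76170974-76232574, minus strand) encodes plectin. Counts were made per gene, so that the epithelial, neuronal and muscle forms of *Dst* are summed, and the RefSeq start sites used here lie 148665 bases apart. *Dst* was at 346, 347 and 439 CPM in WT, at 513, 429 and 335 CPM in WT+ZnO NPs, at 423, 346 and 375 CPM in KO, and at 545, 286 and 651 CPM in KO+ZnO NPs. *Plec* was at 527, 484 and 437 CPM in WT, at 563, 448 and 449 CPM in WT+ZnO NPs, at 471, 499 and 462 CPM in KO, and at 344, 325 and 510 CPM in KO+ZnO NPs. Both genes overlapped between all groups compared, and KO+ZnO NPs was the group with the widest spread. Both genes are also used in muscle, and the summed level of 7 skeletal muscle markers varied in the same groups, from 2486 to 13517 CPM in KO+ZnO NPs and from 4299 to 20276 CPM in WT+ZnO NPs. The library with the most muscle transcripts, WT+ZnO NPs replicate 1, had the highest *Plec* level of all, and KO+ZnO NPs replicate 3, with the next highest sum, the highest *Dst* level. KO+ZnO NPs replicate 2, the third in muscle transcripts (10457 CPM), had the lowest *Dst* and the lowest *Plec* level of the 12 libraries. The part of muscle in these levels was not tested.

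The chains of the hemidesmosomal integrin α6β4 had no call either. *Itga6* was at 167, 212 and 178 CPM in WT and at 194, 137 and 134 CPM in WT+ZnO NPs. *Itgb4* (chr11:115974709-116008412, plus strand) was at 163, 106 and 120 CPM in WT+ZnO NPs and at 124, 171 and 141 CPM in KO+ZnO NPs. In the 4 comparisons and the interaction neither chain was called. Per kb of exon, *Itga6* stood at 151% ± 19.0 of *Itgb4* in WT, 93.3% ± 6.42 in WT+ZnO NPs, 110% ± 16.1 in KO and 128% ± 8.96 in KO+ZnO NPs (SD, n = 3). Scaling by library size alone, which moves the median of all genes by 0.107 on the log2 scale between WT+ZnO NPs and WT, added calls for *Itgb4* (log2 fold change 0.55, adjusted p = 0.0322, edgeR) and *Lamb3* (0.66, adjusted p = 0.0490). An antisense gene, B230344G16Rik, overlaps 7.66% of the *Itgb4* exon bases.

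The surrounding basement membrane was read from 11 further genes: laminin, collagen, nidogen and perlecan genes, *Col7a1* and *Col17a1* included. Between KO and WT, 1 of 11 was called, *Col7a1*, which was higher, a share near the 8.18% of all genes called. Between WT+ZnO NPs and WT, 2 were called higher and 4 lower, near the shares of all genes called (43.0%, with 20.8% higher and 22.1% lower). *Lama5*, which encodes the α5 chain of the laminins found under many epithelia, was 3.39-fold higher, at 65.9, 57.3 and 55.4 CPM in WT and 134, 250 and 222 CPM with ZnO NPs (log2 fold change 1.76 ± 0.27 (SE), adjusted p = 5.35e-04, edgeR). *Lamc1*, which encodes the widespread γ1 chain, was 2.86-fold lower, at 334, 443 and 422 CPM in WT and 93.3, 191 and 135 CPM with ZnO NPs (log2 fold change -1.52 ± 0.25 (SE), adjusted p = 9.23e-04). *Nid1* (-1.63), *Hspg2* (-0.66) and *Lamb2* (-0.54) were the other genes called lower, on the log2 scale. Endothelial markers (6 of 6 called lower, median log2 fold change -1.81), adipocyte markers (4 of 5, -2.67) and fibroblast markers (3 of 7 called lower and 1 higher, -1.14) moved in the same comparison, and their part in these differences was not tested. *Col7a1* was called higher here too, by 1.55 ± 0.33 (SE) on the log2 scale (adjusted p = 0.00401, edgeR), at 107, 85.9 and 70.5 CPM, but its adjusted p was 0.0832 with the Y-linked covariate.

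EdgeR called 0 of these 11 genes between KO+ZnO NPs and KO, where 14.7% of all genes were called, and DESeq2 also called 0. At an unadjusted p under 0.05 edgeR gave 2, *Lama5* and *Lamc1*. *Lamc1* had the lowest (0.0373), with a log2 fold change of -0.58 ± 0.25 (SE). In the comparison of KO+ZnO NPs with WT+ZnO NPs 1 was called, *Col7a1*, where 3.28% of all genes were. *Col7a1* was at 405, 452 and 205 CPM in KO+ZnO NPs (log2 fold change 2.01 ± 0.34 (SE), adjusted p = 0.0290, edgeR). The call was lost without WT+ZnO NPs replicate 3 (adjusted p = 0.125) or KO+ZnO NPs replicate 1 (adjusted p = 0.0620), and also with the Y-linked covariate (0.106), within the libraries with Y-linked transcripts (0.0970) and with only the groups compared (0.193), where the log2 fold changes were 2.15, 2.20 and 1.97. Y-linked transcripts were in all 3 WT+ZnO NPs libraries and in 1 of 3 of KO+ZnO NPs. The interaction was called for *Col7a1* alone of the 11, at -2.24 ± 0.46 (SE) (adjusted p = 0.0201), a share near the 8.68% of all genes called. The median log2 fold change of the 11 genes was -0.20 between KO and WT, -0.66 between WT+ZnO NPs and WT, -0.37 between KO+ZnO NPs and KO and 0.36 between KO+ZnO NPs and WT+ZnO NPs, beside medians of 0.01 to 0.06 over all genes tested. Between KO+ZnO NPs and KO, 4 of the 11 lay below KO in every library, *Col7a1*, *Lamc1*, *Nid1* and *Hspg2*. The groups did not overlap for 34.7% of all genes. All 7 fibroblast markers had negative log2 fold changes there (median -0.77, 1 called lower), and their part was not tested.

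A further 12 genes encode other integrin chains and proteins that link integrins to the cytoskeleton. Between KO and WT, 4 of 12 were called, all higher, where 8.18% of all genes were called and 4.61% called higher. *Fermt1*, which encodes kindlin-1, an activator of integrins in keratinocytes, was at 9.69, 6.91 and 12.4 CPM in WT and 47.4, 39.4 and 28.9 CPM in KO, 3.99-fold higher by the fit (SE of 0.24 on the log2 scale, adjusted p = 0.00128, edgeR). *Itga2*, the α2 chain of a collagen receptor, was higher by 1.96 ± 0.29 (SE) on the log2 scale (adjusted p = 0.00370), and *Itgb6*, the β6 chain of an epithelial integrin, by 1.68 ± 0.30 (SE) (adjusted p = 0.0102). *Itgb5* was the other gene called, at 0.86. In the same comparison *Trp63* and 7 of 8 hair follicle markers were called higher. Of the 7 fibroblast markers, 4 lay above WT in every KO library and the other 3 overlapped, with negative log2 fold changes. The part of these markers in the differences of *Fermt1*, *Itga2*, *Itgb6* and *Itgb5* was not tested.

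Between WT+ZnO NPs and WT, 3 of these 12 were called higher and 3 lower, again near the 43.0% of all genes called. *Fermt1* was at 48.8, 39.1 and 41.9 CPM with ZnO NPs (log2 fold change 2.16 ± 0.24 (SE), adjusted p = 9.05e-05, edgeR). *Itgb6* was higher by 1.96 ± 0.30 (SE) on the log2 scale and *Tln1*, which encodes talin-1, lower by a log2 fold change of -1.27 ± 0.14 (SE). Between WT+ZnO NPs and WT, 8 of 8 hair follicle and 3 of 4 basal keratinocyte markers were called higher. Called lower were 6 of 6 endothelial, 4 of 5 adipocyte, 3 of 4 immune and 5 of 7 suprabasal markers. The part of these cell types in the effector differences was not tested. *Tln1* was also lower between KO+ZnO NPs and KO, at 245, 299 and 279 CPM in KO and 155, 166 and 154 CPM with ZnO NPs (log2 fold change -0.80 ± 0.14 (SE), adjusted p = 0.00904, edgeR; adjusted p = 0.0502 without KO replicate 2). All 4 immune markers were called lower in the same comparison, with sums of 1062 to 2061 CPM in KO and 271 to 561 CPM in KO+ZnO NPs, and their part in the *Tln1* difference was not tested. In that comparison 3 of 12 were called, all lower, where 14.7% of all genes were called. The other 2 were near the threshold: *Itgb5* (-0.72 ± 0.22 (SE), adjusted p = 0.0493) lost its call without any 1 of the WT or KO replicates, WT+ZnO NPs replicate 3, or KO+ZnO NPs replicate 1 or 3 (adjusted p from 0.0645 to 0.133), and *Ilk* (-1.13 ± 0.30 (SE), adjusted p = 0.0334) without WT replicate 1 or 2, any 1 of the KO replicates, or KO+ZnO NPs replicate 1 or 2 (adjusted p from 0.0504 to 0.0951). The *Itgb5* call was also lost with RLE factors (adjusted p = 0.0509) and with the Y-linked covariate (0.0637), and held in 7 of 22 alternatives. The *Ilk* call held in 9 of 21, and its value is uncertain, because antisense genes overlap 89.7% of its exon bases and its level was at most 2.67 CPM. In KO+ZnO NPs against WT+ZnO NPs, 1 of 12 was called, *Itga2* (log2 fold change 1.25 ± 0.28 (SE), adjusted p = 0.0444, edgeR), and of the 12 libraries only KO+ZnO NPs replicate 3 could be left out without losing this call (adjusted p from 0.0601 to 0.154 without any other). The *Itga2* call was lost as well with the Y-linked covariate (adjusted p = 0.142), within the libraries with Y-linked transcripts (0.172) and with only the groups compared (0.202), at log2 fold changes of 1.28, 1.36 and 1.21. The interaction was called for 2 of 12, *Fermt1* and *Itgb6*, both negative, where 8.68% of all genes were called. Both calls were lost with the Y-linked covariate (adjusted p = 0.0840 and 0.206). The *Itgb6* call (adjusted p = 0.0448) was also lost with the replicate block (0.0654), and was kept in only 3 of the 12 fits with 1 library left out, those without WT+ZnO NPs replicate 2 or KO+ZnO NPs replicate 2 or 3 (adjusted p from 0.0665 to 0.100 in the others). The median log2 fold changes of these 12 genes in the 4 comparisons, in the same order, were 0.26, 0.02, -0.07 and 0.12.

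The standardised log2 levels of the 9 genes were averaged in each of the 12 libraries. Of the 5 genes most like this mean, 4 were *Nrbf2* (Pearson r 0.90), *Txnrd3* (0.90), *Nqo1* (0.89) and *Duox1* (0.89). The mean is not a pattern shared by the 9 genes, since the median r of their 36 pairs was 0.07 and 20 pairs were positive. These values are among the highest of the 18822 genes tested and are given as a description.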

How the data were processed

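Whole dorsal skin of 12 mice was profiled by RNA-seq. The authors deposited whole-number read counts per gene and library, without normalization. According to the paper's methods the reads were aligned with STAR and counted with HTSeq, whereas the submitters' processing notes name HISAT2 2.0.5 and mm10, and the library kit also differs between these sources. Which annotation release was used, and whether strand was, is not given in the sources used here. HTSeq by default leaves out reads that overlap more than 1 gene. Of 52636 genes, 52489 were matched to GENCODE M21 on GRCm38. Total counts were 21076320 to 28867802 per library, and replicates differed by 37.4 to 162 chi-square units per degree of freedom, above sampling noise.

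Tests used the quasi-likelihood test of edgeR 4.0.16 in R 4.3.3, with TMM factors, 1 coefficient per group, all 12 libraries and Benjamini-Hochberg adjustment over the 18822 genes that passed edgeR's filter on low counts. Genes were called at an adjusted p below 0.05. Standard errors were taken from the F statistic and are approximate. CPM values include the TMM factors. The alternatives were DESeq2 1.42.0, RLE factors, library size only, 2 other filters, only the groups compared, the replicate number as a block, a covariate for Y-linked transcripts, libraries of 1 sex, and each library left out. The steps were tested on simulated data with 200 genes changed by 2 on the log2 scale. In the comparisons of groups 60% to 64.5% of these were recovered, and 2.27% to 3.05% of the calls were false. For the interaction 46.5% were recovered, and 8.82% of the calls were false. Motifs were matched on both strands of RefSeq windows.

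The 9 genes and the gene lists were chosen with earlier results of these data known. From the lists of partners and effectors, the genes named in full are the called genes with the smallest p in each comparison, at most 3 per list, or the smallest p where none was called. *Col17a1*, *Nid1*, *Hspg2*, *Lamb2* and, between KO and WT, *Itgb5* were named after their values were seen. A gene of the partner list and a gene among the most alike are not reported here.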

Additional observations from a re-analysis of the deposited data

Results flagged for a closer look

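The difference with ZnO NPs differed between libraries labelled WT and those labelled KO for 4 genes, by the interaction term of the edgeR fit with Benjamini-Hochberg adjustment. *Cd151* had an interaction of 1.01 on the log2 scale (adjusted p = 0.0122), with lower levels in all 3 libraries with the label WT+ZnO NPs than in WT and overlapping levels between KO+ZnO NPs and KO. *Col7a1* (-2.24, adjusted p = 0.0201), *Fermt1* (-2.03, adjusted p = 0.00905) and *Itgb6* (-1.55, adjusted p = 0.0448) had negative interactions. These 3 genes were higher in all libraries with the label WT+ZnO NPs than in WT, and had log2 fold changes without a call between KO+ZnO NPs and KO. In the latter comparison *Col7a1* was at -0.69 ± 0.32 (SE) (adjusted p = 0.168, edgeR), with every KO+ZnO NPs library below every KO library. *Fermt1* (0.14) and *Itgb6* (0.41) overlapped there. With a covariate for Y-linked transcripts, all 4 lost their call (adjusted p = 0.0605, 0.133, 0.0840 and 0.206 in the order given), while the interactions were 1.17, -2.02, -1.63 and -1.49 and their SEs larger. In WT+ZnO NPs the *Cdc42* level, below that of KO, is not what the name of the group says. The interaction was also called for 7 of 8 hair follicle markers (negative) and 3 of 6 endothelial markers (positive), whose part was not tested. Sex and ZnO NPs cannot be told apart between the WT groups.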

How the results depend on the processing

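The number of the 9 genes called was 3 between KO and WT (1 to 3 with 1 library left out), 4 between WT+ZnO NPs and WT (1 with the Y-linked covariate, 6 with library size only, 3 to 4 with 1 library left out), 0 between KO+ZnO NPs and KO, 0 between KO+ZnO NPs and WT+ZnO NPs (4 by DESeq2, 2 with a minimum of 10 counts in every library, 0 to 3 with 1 library left out) and 1 for the interaction (0 with the Y-linked covariate, 1 to 2 with 1 library left out). The count between KO and WT was 1 without WT replicate 2 or KO replicate 2. Of all values recomputed, 1191 kept their direction and their side of the threshold, 77 lost their call, 15 gained one and 34 changed sign. The changes of sign were in values near 0 that were never called. Between KO and WT they were *Itga3* at -0.0669 within the libraries with *Xist*, *Itgb1* at -0.0099 with RLE factors and -0.01 by DESeq2, *Dst* at -0.061 with the Y-linked covariate and -0.0633 within the libraries with *Xist*, and *Plec* at 0.0007 with only the groups compared and 0.0369 with the Y-linked covariate. Between WT+ZnO NPs and WT they were *Dst* at -0.0488 with the Y-linked covariate and *Plec* at -0.0276 without a filter. Between KO+ZnO NPs and KO, within the libraries with Y-linked transcripts, *Itgb4* was at -0.21 and *Cd151* at -0.0893. Between KO+ZnO NPs and WT+ZnO NPs, *Itgb4* was at -0.0638 within the libraries with Y-linked transcripts and *Itga3* at 0.0729 with the Y-linked covariate. With 1 library left out, the log2 fold changes that changed sign ranged as follows. Between KO and WT, *Itga6* ran from -0.12 to 0.0618, *Itga3* from -0.069 to 0.37, *Itgb1* from -0.0601 to 0.0914, *Dst* from -0.0653 to 0.14 and *Plec* from -0.0846 to 0.0507. Between WT+ZnO NPs and WT, *Plec* ran from -0.11 to 0.0746. Between KO+ZnO NPs and KO, *Itgb4* ran from -0.013 to 0.30 and *Lama3* from -0.36 to 0.23. Between KO+ZnO NPs and WT+ZnO NPs, *Itga3* ran from -0.44 to 0.0721 and *Dst* from -0.0433 to 0.48. For the interaction, *Lamb3* ran from -0.44 to 0.0779 and *Dst* from -0.0698 to 0.45. The cause of these changes was not tested.

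The replicate numbers were not taken to pair the samples. Deviations of same-numbered libraries had correlations from -0.34 to 0.43. Libraries of different number were not compared in this way, so this check cannot decide whether the samples are paired. With the replicate number as a block the counts called stayed at 3, 4, 0, 0 and 1, *Lamb3* between KO and WT had an adjusted p of 0.0313, and among the genes named *Itgb6* lost its interaction call (adjusted p = 0.0654) and *Ilk* its call between KO+ZnO NPs and KO (0.0503). Library size alone moved the median of all genes by 0.107 between WT+ZnO NPs and WT and by -0.152 between the groups given ZnO NPs. With 3 libraries in a group, the 95% interval of *Lama3* between KO+ZnO NPs and KO ran from -0.69 to 0.56, which shows the precision reached. *Ilk* gave no value with a minimum of 10 counts. Of the 11 partners, 2 (DESeq2) and 3 (only the groups compared) were called between KO and WT in place of 1, 3 in place of 6 between WT+ZnO NPs and WT with the Y-linked covariate, 0 in place of 1 between KO+ZnO NPs and WT+ZnO NPs with only the groups compared, with the Y-linked covariate or within the libraries with Y-linked transcripts, and for the interaction, in place of 1, 2 by DESeq2 or library size only and 0 with the Y-linked covariate. Of the 12 effectors, 1 in place of 3 was called between KO+ZnO NPs and KO without a filter, with only the groups compared or within the libraries with *Xist*, and 0 within those with Y-linked transcripts. Between KO+ZnO NPs and WT+ZnO NPs, 0 in place of 1 effector was called in these last libraries, with the Y-linked covariate or with only the groups compared, and for the interaction, in place of 2, 1 with the replicate block and 0 with the Y-linked covariate. Leaving out 1 library gave 0 to 4, 0 to 2 and 1 to 2 effectors in these 3 comparisons. The *Itgb6* interaction call was lost without any 1 of the WT or KO replicates, WT+ZnO NPs replicate 1 or 3, or KO+ZnO NPs replicate 1 (adjusted p from 0.0665 to 0.100).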
